A study of Rattus norvegicus with 20 samples.

Results

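Rear-leg skeletal muscle of normal rats given vanadyl sulfate was compared with that of normal rats whose labels name no treatment, called untreated here. The comparison rests on 10 of the 20 arrays of a study of normal and diabetic rats, namely the 5 labelled as normal muscle of treated rats and the 5 labelled as normal muscle, each chosen by its title. The other 10 arrays, diabetic muscle with and without the salt (5 each), entered the estimate of the spread and a test of whether the treatment difference was the same in diabetes. Poly(A) RNA was measured on 1 one-colour Affymetrix expression array per sample. Not given in the sources used here were strain, age, the leg muscle taken, the vehicle, the dose, route and length of treatment, and the way diabetes was produced. Whether the 5 replicates of a group were 5 animals is not stated in the labels, and p-values then measure only the spread between these samples.

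Vanadyl sulfate is a salt of vanadium, and vanadium compounds lower blood glucose in diabetic animals and act in part like insulin. Vanadate resembles phosphate: it inhibits protein tyrosine phosphatases, which remove phosphate from the insulin receptor and its substrates, and P-type ATPases, the family of the sodium and calcium pumps. Skeletal muscle is the main site where insulin increases glucose uptake, largely through the transporter Slc2a4 (GLUT4), and it switches between glucose and fatty acids as fuel.

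The arrays of the untreated group were the less uniform. The correlation of log2 signals between 2 arrays had a median of 0.86 among the 10 pairs of untreated arrays, 0.93 among the 10 pairs of treated arrays and 0.89 between the groups. The log2 ratio of the signal at the 3' end of the Gapdh control to that at its 5' end, which is high where RNA is degraded or poorly copied, was 2.90 in untreated replicate 1 and 2.91 in untreated replicate 3. The other 8 arrays reached 0.68 at most. The mean ratio was 1.20 ± 1.56 in untreated and 0.19 ± 0.29 in treated muscle (SD, n = 5 each; exact permutation p = 0.294, adjusted over 2 ratios 0.587). For beta-actin the means were 1.30 ± 1.07 and 1.07 ± 0.68 (exact permutation p = 0.698, adjusted 0.698), and the smallest p that 5 against 5 arrays allow is 0.00794. By array, the beta-actin ratio was 3.01 in untreated replicate 1, 2.09 in treated replicate 1, 1.68 in untreated replicate 3 and 1.43 in treated replicate 4. The rest of the 10 arrays reached 0.75 at most. Values without the 3 high-ratio arrays leave out untreated replicates 1 and 3 and treated diabetic replicate 1, whose Gapdh ratio was also high. The results were also fitted with these ratios as covariates. Beyond these values the part of RNA quality in the results below was not tested.

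No probe set passed the test of treated against untreated normal muscle. Of 8740 probe sets, 0 had an adjusted p under 0.05 (limma, Benjamini-Hochberg; 0% called), and the smallest adjusted p was 0.0642. Before adjustment, 762 probe sets (8.72%) had a limma p under 0.05, where 437 would have it by the threshold alone. Of these, 632 had the higher and 130 the lower mean in treated muscle. The median standard error of a log2 difference was 0.40. The 95% interval lay within a 2-fold change either way for 2838 probe sets (32.5%) and within a 4-fold change for 7925 (90.7%). For the other probe sets the interval reached beyond these changes. For 142 probe sets (1.62%) every treated value lay above, or every one below, the untreated values. All differences below are treated minus untreated, on the scale of log2(signal + 16), which understates the change of dim probe sets.

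The excess of higher over lower values depended on the scaling of the arrays. The median log2 difference over all probe sets was 0.20, and over the 4736 genes with a named probe set it was 0.19. Of these genes 67.4% had a positive difference, and 50.6% after quantile normalization. Counts of positive members in the lists below are to be read against these shares, except in lists of bright genes. The probe sets were cut by mean signal into 10 equal bins. The median ran from 0.18 to 0.27 in the 9 dimmer bins and was -0.06 in the brightest. In that bin 43.2% of probe sets had a positive difference (54.0% after quantile normalization). At an unadjusted limma p under 0.05, 14 of them were higher and 41 lower with the authors' scaling. The median signals of the fibre, respiratory chain, citrate cycle, glycolysis, proteasome and ribosomal lists lay in this bin. Their counts are to be read against its values. Quantile normalization gives every array the same distribution of signals. After it the median over all probe sets was 0.01, and 292 probe sets were higher and 305 lower at an unadjusted limma p under 0.05. The share of higher values among these thus went from 82.9% to 48.9%. For several genes, given below with both values, the size or the sign depended on the scaling.

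**Figure D1:**
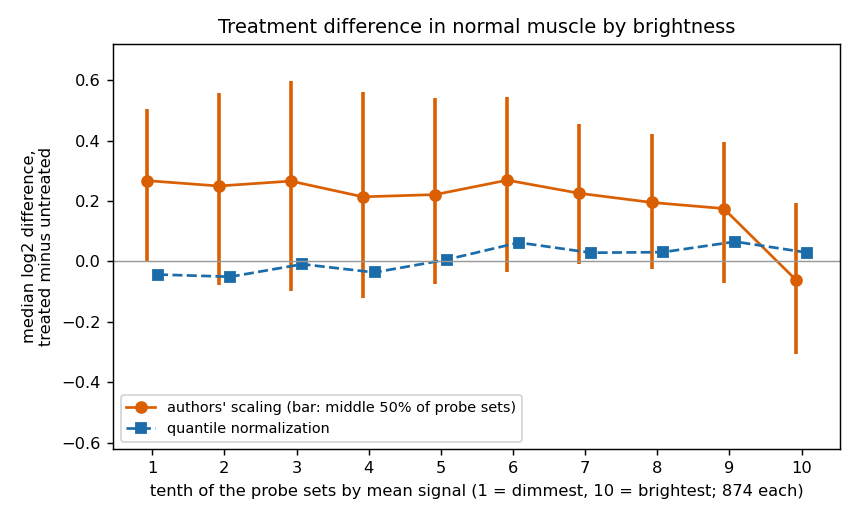
Median log2 difference between treated and untreated normal muscle (vertical axis) in 10 bins of the probe sets ordered by mean signal (horizontal axis), with the authors' scaling (circles; bars span the interquartile range of the probe sets) and after quantile normalization (squares). With the authors' scaling the median lies between 0.18 and 0.27 in the dimmer bins and at -0.06 in the brightest; after quantile normalization it lies between -0.05 and 0.07.

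The gene with the smallest p was Gipc1, a PDZ-domain adaptor that links membrane receptors to myosin motors. Its log2 signal (probe set AF089817_i_at) was 11.66, 11.27, 11.38, 11.95 and 11.36 in untreated replicates 1 to 5 and 12.83, 13.66, 13.43, 12.69 and 12.75 in treated replicates 1 to 5. All 5 treated arrays lay above all 5 untreated ones. The difference was 1.55 ± 0.26 (SE of the fit; 2.92-fold; limma adjusted p = 0.0642), and 1.50 after quantile normalization. The 2 other probe sets of Gipc1 gave 0.09 and 0.30.

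Fyn, a tyrosine kinase of the Src family, had log2 signals of 10.56, 10.12, 10.21, 10.86 and 10.17 without and 11.82, 11.56, 12.04, 11.32 and 11.39 with vanadyl sulfate (rc_AI009191_at). These groups too did not overlap. The difference was 1.24 ± 0.24 (limma adjusted p = 0.111), and it was 1.24 without untreated replicates 1 and 3, which had the high Gapdh ratios. Pros1, the anticoagulant protein S, had 9.77, 9.56, 9.36, 10.51 and 9.22 in untreated muscle and 11.01, 10.84, 10.76, 10.90 and 10.69 in treated muscle (U06230_s_at; 1.16 ± 0.25, limma adjusted p = 0.239). Its treated values lay close together and above the highest untreated value. The limma adjusted p of the other 12 of the 15 higher genes ran from 0.247 to 0.316.

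Several of these genes act in signalling or in the handling of RNA. Pde4d, a phosphodiesterase that breaks down cyclic AMP, had the widest gap of the 15 genes but was dim in untreated muscle. Pde4d lay above the 40th percentile of the array in 2 untreated and 5 treated arrays. Its log2 signal was 9.26, 8.27, 6.30, 7.56 and 7.36 without and 9.30, 10.15, 9.42, 9.66 and 10.97 with treatment (L27059_s_at; 2.15 ± 0.53, limma adjusted p = 0.247), and its other probe set gave 1.55. The lowest treated value only just exceeded the highest untreated one. Ppp1r12a, the targeting subunit of myosin phosphatase, differed by 1.43 ± 0.32, and its other probe sets by 0.46 and 0.90. The developmental receptor Notch1 differed by 0.94 ± 0.23, with 5 treated values between 11.12 and 11.45 above untreated values between 9.76 and 10.75. Its other probe set gave 0.61. Rbm39, a splicing factor (1.36 ± 0.32), and the RNA-binding proteins Hnrnpu (1.30 ± 0.32) and Hnrnpa3 (1.32 ± 0.33) had limma adjusted p-values of 0.247. Of these 3, only Hnrnpa3 had values that overlapped between the groups. Other probe sets gave 0.60 and 1.20 for Rbm39, 0.68 for Hnrnpu and 0.84 for Hnrnpa3.

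The higher genes also included lipid and cell-death proteins. Acsl4, which joins long-chain polyunsaturated fatty acids to coenzyme A, was 1.65 ± 0.39 higher by rc_AI236284_s_at, and its other probe sets gave 0.88 and 0.92. Treated replicate 5 stood above the rest at 13.52, where the other 4 treated arrays ran from 10.75 to 11.90. Apod, a secreted lipid carrier, differed by 1.52 ± 0.37, and Alox5ap, which presents arachidonic acid to the leukotriene-forming 5-lipoxygenase, by 1.49 ± 0.40. In both, the groups overlapped, and the other probe set of Alox5ap gave 0.57. Bid, a BH3-only protein that promotes apoptosis, differed by 1.50 ± 0.40, Scnn1a, the alpha subunit of the epithelial sodium channel, by 1.27 ± 0.31, and Padi2, which converts arginine in proteins to citrulline, by 1.04 ± 0.28. Some of these genes were dim in part of the untreated arrays. Scnn1a lay above the 40th percentile of the array in 1 untreated array, and Bid and Alox5ap in 3 each. All 3 genes did so in 5 treated arrays. All 15 genes had the higher treated mean under quantile normalization (the smallest difference was 0.80), and in 12 of the 15 the groups did not overlap; the genes were picked by this contrast, so these counts describe the choice and support nothing.

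Of the 10 probe sets with the smallest p, 3 were unnamed, and the 2 with the smaller p are given here. The probe set rc_AA944177_at had log2 signals of 8.87, 8.51, 9.07, 8.11 and 8.22 without and 10.30, 10.58, 9.96, 9.58 and 10.67 with treatment (1.66 ± 0.29, limma adjusted p = 0.0642). For rc_AA859832_at the untreated values ran from 10.60 to 11.52 and the treated ones from 12.19 to 12.58 (1.31 ± 0.26, limma adjusted p = 0.111). Neither pair of groups overlapped. Atrx, a chromatin remodeller, was dim in both groups, at 5.73 to 7.27 without and 7.88 to 8.61 with treatment (1.69 ± 0.34, limma adjusted p = 0.134).

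Among the 15 lower genes the limma adjusted p ran from 0.247 to 0.470. Dgkz, a kinase that turns the messenger diacylglycerol into phosphatidic acid, had log2 signals of 9.85, 11.74, 10.22, 11.20 and 11.75 without and 8.59, 9.23, 9.77, 9.15 and 8.68 with vanadyl sulfate (D78588_at). All treated values lay below all untreated ones, and the 2 lowest untreated values came from the replicates with high Gapdh ratios. The difference was -1.86 ± 0.44 (limma adjusted p = 0.247), and -2.47 without those 2 arrays. Gprc5c, an orphan G-protein-coupled receptor, had 10.44, 11.08, 10.22, 10.96 and 10.84 against 8.54, 8.94, 9.33, 9.65 and 8.91 (rc_AA892287_at; -1.63 ± 0.41, limma adjusted p = 0.247). Its groups did not overlap either.

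Nr0b2, a nuclear receptor that represses other transcription factors, differed by -1.41 ± 0.37 by D86580_at, from 10.12 ± 0.29 to 8.72 ± 0.62 (SD, n = 5 each), while its 2 other probe sets gave 0.13 and 0.86. The probe sets of this gene thus disagreed in sign. Stat5a, a transcription factor downstream of cytokine and growth hormone receptors, differed by -1.35 ± 0.45 and by -1.0 on its other probe set. The remaining lower genes outside the muscle and fuel genes were Txnl4b (-1.21 ± 0.37), Stx7, a syntaxin of endosomes (-1.0 ± 0.31), Klhdc3 (-0.85 ± 0.28), Homer2, a scaffold of calcium signalling (-0.77 ± 0.24), and Pebp1, an inhibitor of Raf kinase (-0.70 ± 0.22). For Pebp1 the other probe set gave 0.03.

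**Figure D2:**
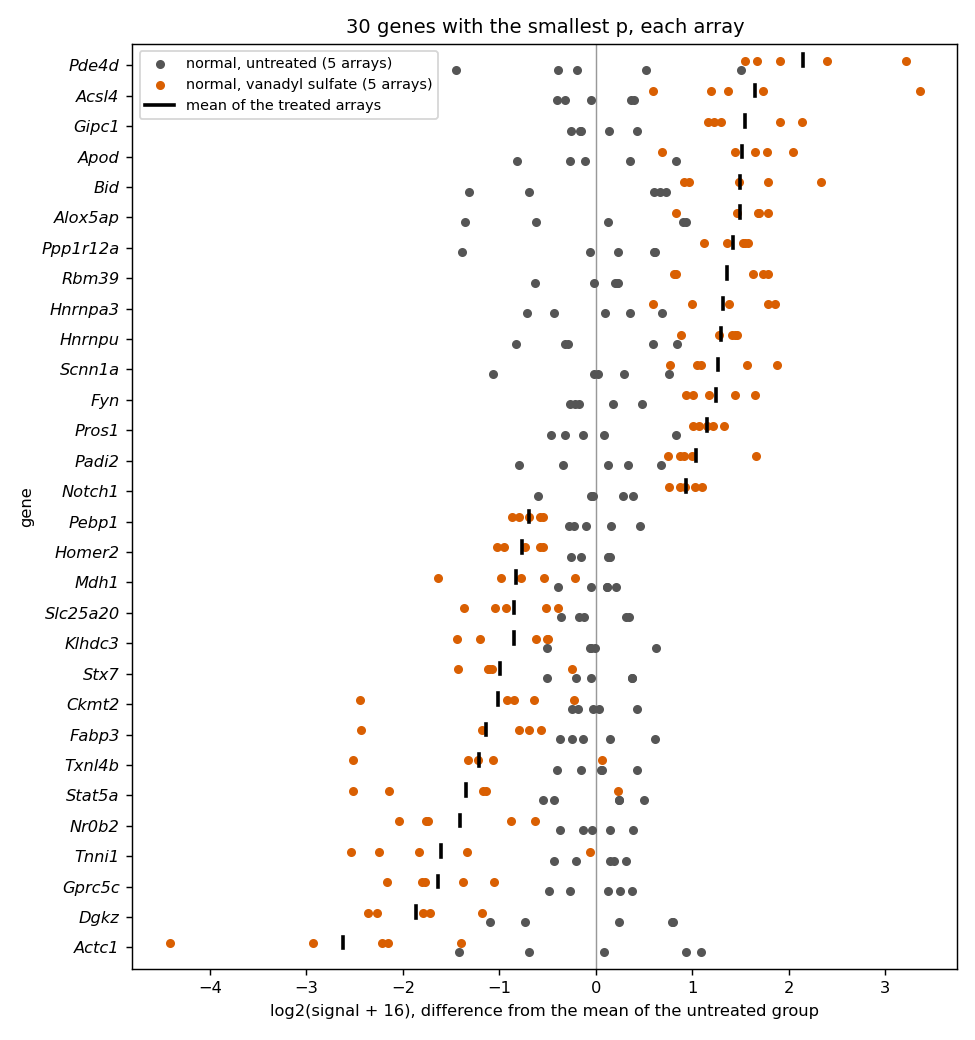
Each array's log2(signal + 16) for the 15 higher and 15 lower genes with the smallest limma p, as the difference from the mean of the untreated group (horizontal axis); grey points are the 5 untreated arrays, orange points the 5 treated arrays and black ticks the treated means. The means run from 2.15 for Pde4d to -2.62 for Actc1, and the genes were chosen by this contrast.

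Contractile genes of muscle stood among the lower genes. Actc1, the cardiac alpha-actin that is also made in developing muscle, had log2 signals of 13.30, 14.81, 14.02, 15.81 and 15.65 in untreated and 13.32, 11.79, 12.50, 12.56 and 10.30 in treated muscle (rc_AA866452_s_at). Treated replicate 1 overlapped the untreated group, and treated replicate 5 was lowest. The difference was -2.62 ± 0.76 (6.16-fold; limma adjusted p = 0.362), and -2.75 after quantile normalization. Tnni1, the slow-fibre inhibitory troponin, had 14.99, 14.37, 14.95, 15.11 and 14.59 against 14.74, 12.27, 13.47, 12.55 and 12.97 (-1.60 ± 0.57, limma adjusted p = 0.470). Again treated replicate 1 lay within the untreated range and the other 4 below it.

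Of 10 measured slow-fibre contractile genes, 0 passed the adjusted test, 9 had negative and 1 positive differences, and 1 was lower at an unadjusted limma p under 0.05. Over all genes with a probe set these shares were 6.78% higher and 1.9% lower at that unadjusted threshold. The median difference of the slow-fibre list was -0.70 (all genes 0.19), it was -0.35 with both RNA quality ratios as covariates, and it was -0.61 after quantile normalization (all genes 0.01), where 1 of the 10 was lower and 0 were higher at that threshold, beside 4.18% and 3.06% of all genes. Myl3 and Myl2, the ventricular and slow myosin light chains, gave -0.99 ± 0.54 (-0.65 after quantile normalization) and -1.02 ± 0.70, and Myh7, the slow myosin heavy chain, -0.93 ± 0.59. Mean list levels were 13.23 to 13.83 in untreated and 12.26 to 13.49 in treated arrays. The 2 ranges overlapped.

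Fast-fibre genes and the general fibre markers gave negative medians that followed 1 array and the scaling. Both lists are bright, and in the brightest bin of probe sets 43.2% had positive differences with the authors' scaling. Of 14 fast-fibre genes 13 had negative differences (median -0.62), and 4 were lower at an unadjusted limma p under 0.05 (all genes 1.9%). After quantile normalization 2 were lower at that threshold (all genes 4.18%). All 10 fibre markers had negative differences (median -0.60). Myh4, the fastest myosin heavy chain, had log2 signals of 15.94, 15.85, 18.07, 16.46 and 16.40 in untreated and 15.90, 15.89, 15.81, 15.98 and 15.63 in treated muscle (-0.71 ± 0.33). This difference was -0.23 after quantile normalization and -0.40 without the 3 high-ratio arrays. Ckm, the muscle creatine kinase, reached 19.54 in untreated replicate 3 and stayed at or under 17.52 elsewhere. Without untreated replicate 3 the medians were -0.30 for the fast-fibre list and -0.24 for the fibre markers. The medians in the same order were -0.15 and -0.03 after quantile normalization, and -0.35 and -0.29 after cyclic loess normalization. Myh2, the heavy chain of type IIA fibres, was 15.40 ± 0.40 without and 14.73 ± 0.25 with treatment (SD, n = 5 each; -0.67 ± 0.26, limma adjusted p = 0.520; -0.51 after quantile normalization).

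The levels of marker lists are given for comparison between the groups only, since signals of different probe sets cannot be set against each other. The mean log2 signal of the fibre markers was 16.05 to 17.58 in untreated and 15.98 to 16.44 in treated arrays. Immune cell markers lay at 9.40 to 9.81 and 9.69 to 9.97 in the same order, endothelial markers at 8.82 to 10.03 and 8.92 to 9.66, blood cell markers at 9.42 to 10.14 and 8.67 to 9.89, and adipocyte markers at 10.07 to 10.72 and 10.37 to 10.70. In bulk tissue, fewer cells of a type and less RNA per cell cannot be told apart.

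Markers of other cells gave the following. Of 10 immune markers 7 had positive differences (median 0.26; 0.08 after quantile normalization). Fcgr2b, an inhibitory receptor for antibodies, had 8.20, 7.65, 8.04, 7.99 and 8.22 without and 9.02, 8.66, 9.11, 8.66 and 8.82 with treatment (X73371_at; 0.84 ± 0.28, limma adjusted p = 0.445). These groups did not overlap. Lgals3, the macrophage lectin galectin-3, differed by 0.69 ± 0.26 and C1qb, a chain of complement C1q, by 0.72 ± 0.43. Ptprc, the common leukocyte antigen, differed by -0.79 ± 0.48, while its other probe sets gave 0.06 and 0.17. All 5 mast cell markers had positive differences (median 0.42; 0.14 after quantile normalization); Cpa3, the mast cell carboxypeptidase, had untreated values of 7.88 to 9.21 and treated values of 9.65 to 9.90 (1.04 ± 0.44, limma adjusted p = 0.524). Of the 5 blood markers 3 had negative differences (median -0.57, and -0.80 after quantile normalization). Hbb, beta-globin, was 10.87 in treated replicate 5 against 13.91 to 15.81 in the other 9 arrays. The endothelial median was -0.15 over 6 genes (-0.36 after quantile normalization), of which 2 had positive and 4 negative differences. Its member with the smallest p, Vwf, was dim and differed by 1.06 ± 0.34 (limma adjusted p = 0.415), and by -0.44 on its other probe set. The part of other cells in the results was not tested.

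**Figure D3:**
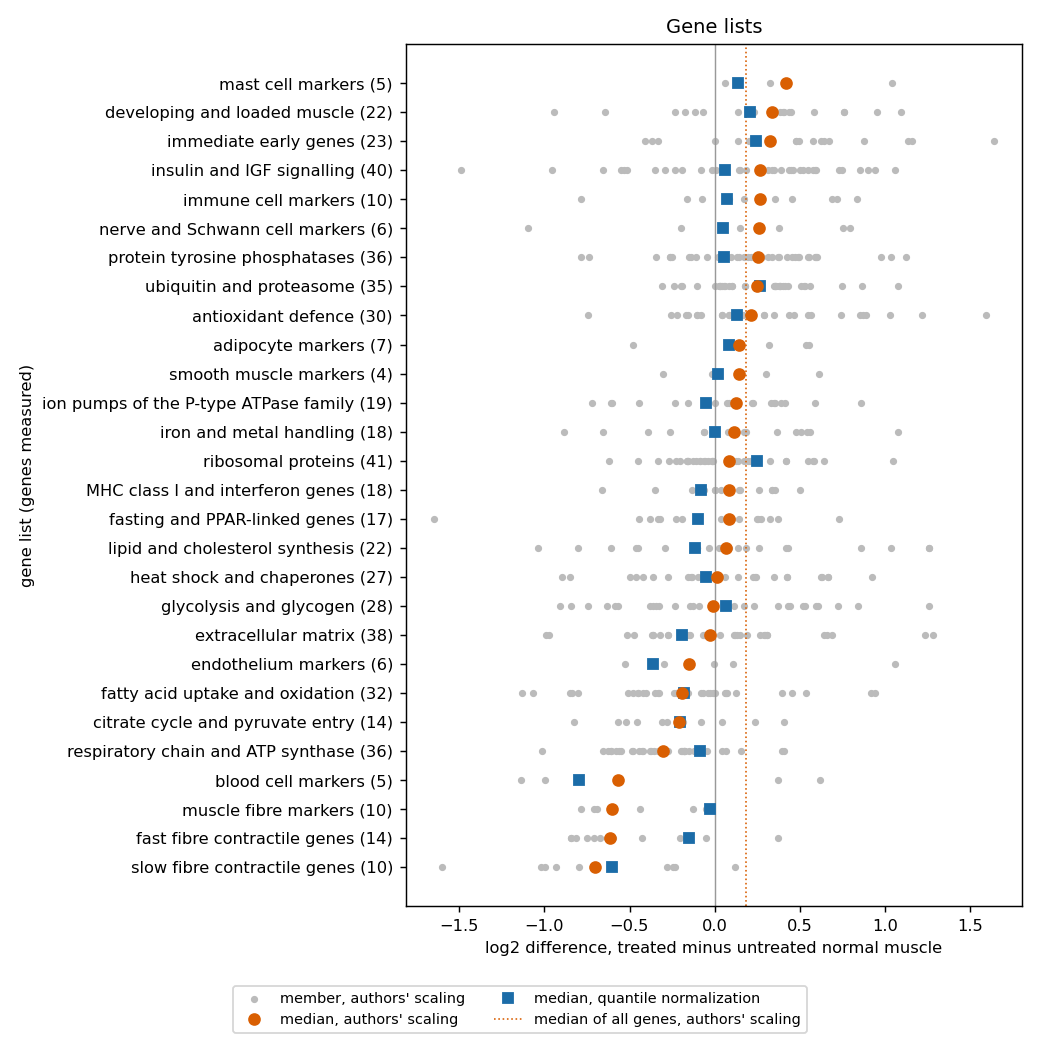
Differences between treated and untreated normal muscle for each gene of 28 lists (grey points, log2; the number of genes measured stands beside each name), with the list median under the authors' scaling (orange circle) and after quantile normalization (blue square); the dotted line is the median of all genes, 0.19. The slow-fibre list lies lowest under the authors' scaling at -0.70 and at -0.61 after quantile normalization (-0.35 with both RNA quality ratios as covariates). The fibre markers move from -0.60 to -0.03, and were at -0.29 after cyclic loess normalization, which is not drawn.

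The fatty acid genes had mostly negative differences. Of 32 genes of fatty acid uptake and oxidation, 0 passed, 22 had negative and 10 positive differences, and 5 were lower and 0 higher at an unadjusted limma p under 0.05. After quantile normalization 6 were lower and 0 higher. Of all genes, 1.9% were lower and 6.78% higher at this threshold, and 4.18% and 3.06% after quantile normalization. The list median was -0.19 with the authors' scaling and -0.18 after quantile normalization, and -0.40 without the 3 arrays whose Gapdh ratio was high. Fabp3, the fatty acid binding protein of heart and muscle, had log2 signals of 15.37, 15.25, 16.11, 15.13 and 15.65 without and 14.81, 14.32, 14.71, 14.93 and 13.07 with treatment (J02773_at). Every treated value lay below every untreated one. The difference was -1.13 ± 0.39 (2.19-fold; limma adjusted p = 0.462), and -1.05 after quantile normalization.

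Several genes that carry fatty acids into mitochondria and start their oxidation also had negative differences, while Cpt1b, given below, did not. Slc25a20, the carnitine-acylcarnitine carrier of the inner membrane, had 11.83, 11.89, 12.32, 12.35 and 11.64 against 10.64, 10.96, 11.08, 11.49 and 11.62 (-0.85 ± 0.29, limma adjusted p = 0.442). Cpt2, which releases the fatty acid from carnitine inside, had 13.08, 13.22, 12.94, 13.45 and 13.74 against 12.34, 12.39, 12.53, 12.73 and 12.24 (-0.84 ± 0.32, limma adjusted p = 0.520). Neither gene had overlapping groups. Acads, the short-chain acyl-CoA dehydrogenase, differed by -1.06 ± 0.42 (-1.61 without the 3 high-ratio arrays) and Acadl, the long-chain one, by -0.81 ± 0.38. The entry enzyme Cpt1b, the muscle form of carnitine palmitoyltransferase, differed by 0.00 ± 0.35, with untreated values of 13.81 to 15.27 and treated values of 14.50 to 14.77. This value too depended on the arrays of high Gapdh ratio, at -0.40 without them, and it was 0.11 after quantile normalization. Cpt1a, the liver form, differed by -0.34 ± 0.36 (-0.52 after quantile normalization) and the lipase Lpl, which frees fatty acids from lipoproteins, by -0.04 ± 0.36 (0.36 without the 3 high-ratio arrays).

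Ucp3 and Pdk4, both induced in muscle by fasting, split the untreated arrays. Ucp3, an uncoupling protein homologue of muscle mitochondria, had 10.33, 13.42, 10.79, 13.98 and 13.45 in untreated and 8.37, 12.09, 11.46, 10.31 and 11.49 in treated muscle (AF035943_at). The low untreated values were those of replicates 1 and 3, the arrays of high Gapdh ratio. The difference was -1.65 ± 0.66 (limma adjusted p = 0.521) with all arrays and -2.87 without the 3 arrays whose Gapdh ratio was high (adjusted p = 0.077). Its other probe set gave -1.17. Pdk4, the kinase that switches off pyruvate oxidation, had 6.08, 13.33, 5.58, 11.82 and 11.23 in untreated and 8.40, 9.14, 9.23, 9.40 and 10.28 in treated muscle (AF034577_at). The untreated arrays thus lay both below and above all treated ones, with replicates 1 and 3 again the low ones. The difference was -0.32 ± 1.15 with all arrays (-0.52 after quantile normalization) and -2.84 without those of high Gapdh ratio.

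Cd36, a fatty acid transporter of the cell surface, and Tfrc, the transferrin receptor that imports iron, had the same low untreated arrays. For Cd36 the untreated values were 7.42, 11.68, 7.55, 8.70 and 9.31 and the treated values ran from 8.03 to 10.76, a difference of 0.53 ± 0.79 that was -0.43 without the 3 arrays whose Gapdh ratio was high. For Tfrc the untreated values were 9.76, 12.86, 8.42, 10.56 and 10.98 and the treated values ran from 9.32 to 11.77, a difference of 0.12 ± 0.87 that was 0.02 after quantile normalization and -0.82 without them. The sign of both genes thus depended on these arrays. The 17 measured genes linked to fasting and PPAR receptors had 10 positive and 7 negative differences, with a median of 0.08 (-0.10 after quantile normalization).

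**Figure D4:**
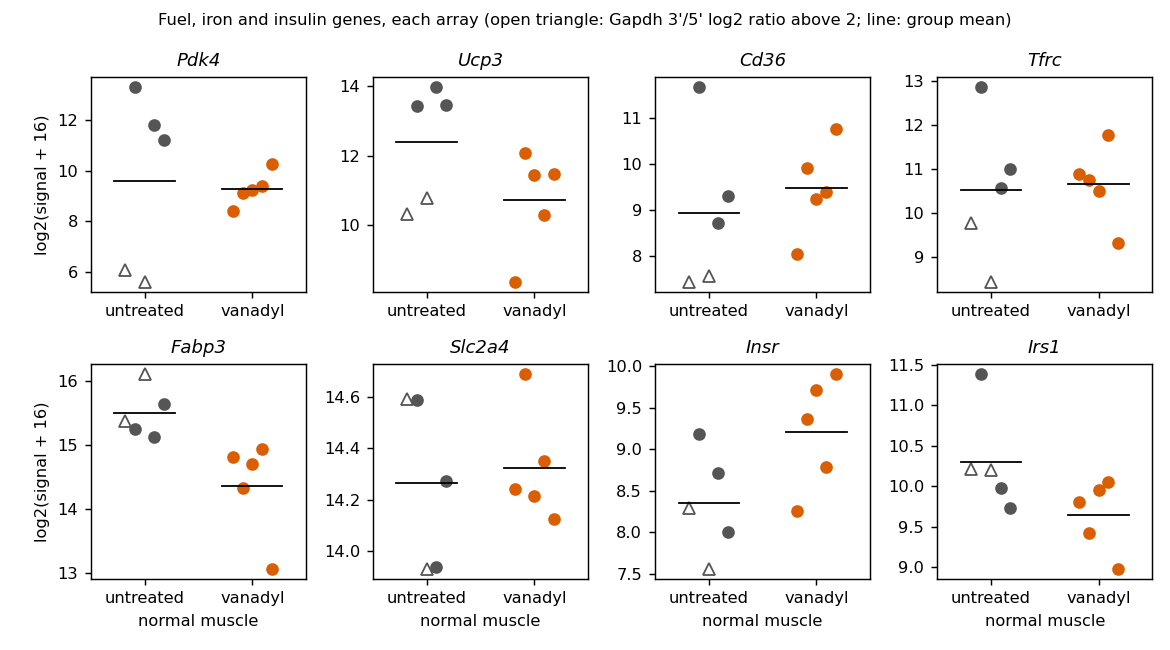
log2(signal + 16) of 8 genes of fuel use, iron uptake and insulin action in each of the 5 untreated (grey) and 5 treated (orange) normal arrays; open triangles are arrays with a Gapdh log2 ratio above 2, and lines are group means. The triangles are the 2 lowest untreated arrays for Pdk4 (6.08 and 5.58), Ucp3, Cd36 and Tfrc, and the groups do not overlap for Fabp3.

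Mitochondrial energy genes had mostly negative differences, and their size depended on the scaling. Most are bright, and in the brightest bin of probe sets 43.2% had positive differences with the authors' scaling. Of 36 genes of the respiratory chain and ATP synthase, 31 had negative differences and 3 were lower at an unadjusted limma p under 0.05 (all genes 1.9%). After quantile normalization 1 was lower at that threshold (all genes 4.18%). The median was -0.31, and -0.09 after quantile normalization, -0.10 without the 3 arrays whose Gapdh ratio was high and -0.16 without untreated replicate 3. Ckmt2, the mitochondrial creatine kinase of muscle, had 16.18, 16.11, 16.79, 16.33 and 16.39 without and 15.72, 15.44, 15.51, 16.13 and 13.92 with treatment (-1.01 ± 0.36, limma adjusted p = 0.470; -1.06 on its other probe set; -0.66 without treated replicate 5). Treated replicate 5 was lowest and treated replicate 4 overlapped the untreated group. Slc25a3, the phosphate carrier, differed by -0.55 ± 0.23 (-0.27 after quantile normalization) and Cox6b1, a subunit of cytochrome oxidase, by -0.66 ± 0.30 (-0.36).

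In the citrate cycle 11 of 14 genes had negative differences, and the median was -0.21 (-0.20 after quantile normalization). Mdh1, cytosolic malate dehydrogenase, had 16.16, 15.56, 16.08, 15.91 and 16.07 without and 15.42, 15.18, 14.97, 15.74 and 14.32 with treatment (-0.83 ± 0.29, limma adjusted p = 0.470). Suclg1, a subunit of succinyl-CoA ligase, was 15.07 ± 0.06 and 14.50 ± 0.39 (SD, n = 5 each; -0.57 ± 0.24), and its treated values of 13.89 to 14.87 all lay below the untreated ones of 14.99 to 15.13.

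Glycolysis and glycogen genes were evenly divided, with 14 positive and 14 negative differences and a median of -0.01. Of them 1 was higher and 4 were lower at an unadjusted limma p under 0.05 (all genes 6.78% and 1.9%). After quantile normalization 0 were higher and 3 lower at that threshold (all genes 3.06% and 4.18%). The 4 lower ones at an unadjusted limma p under 0.05 were Ldhb (-0.91 ± 0.42), the lactate dehydrogenase subunit of oxidative tissue, the glycolytic enzymes Pgam2 (-0.84 ± 0.36; -0.48 without the 3 high-ratio arrays) and Pkm (-0.57 ± 0.26; -0.21 after quantile normalization), and Phkg1 (-0.74 ± 0.35), the catalytic subunit of phosphorylase kinase. The single higher one was Pfkfb2 (1.26 ± 0.47), which makes the activator of phosphofructokinase and was dim, at 5.80 to 7.42 without and 6.98 to 8.77 with treatment. Hk2, the hexokinase of insulin-responsive tissue, differed by 0.52 ± 0.47 and by 0.01 on its other probe set. Its difference was 0.13 without untreated replicate 2 and 1.03 without the 3 high-ratio arrays.

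The insulin pathway gave values on both sides. Slc2a4, the insulin-responsive glucose transporter, had log2 signals of 14.59, 14.59, 13.93, 13.94 and 14.28 without and 14.24, 14.69, 14.21, 14.35 and 14.12 with vanadyl sulfate (D28561_s_at). The groups overlapped. The difference was 0.06 ± 0.30 (0.12 after quantile normalization), and -0.09 on the other probe set. Insr, the insulin receptor, had 8.29, 9.18, 7.56, 8.72 and 8.01 against 8.26, 9.36, 9.72, 8.78 and 9.91 (M29014_at; 0.86 ± 0.37, limma adjusted p = 0.532), and Irs1, its main substrate in muscle, had 10.21, 11.39, 10.20, 9.98 and 9.73 against 9.81, 9.42, 9.95, 10.06 and 8.98 (-0.66 ± 0.36, limma adjusted p = 0.608). Both pairs of groups overlapped, and for Irs1 the difference was -0.39 without untreated replicate 2.

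Of 40 insulin and IGF genes, 28 had positive differences (all genes 67.4%), with a median of 0.27 that was 0.06 after quantile normalization and 0.08 without the 3 high-ratio arrays. At an unadjusted limma p under 0.05, 5 were higher and 1 lower (all genes 6.78% and 1.9%), and after quantile normalization 3 were higher and 4 lower (all genes 3.06% and 4.18%). Besides Insr, the higher ones were Slc2a1, the glucose transporter of basal uptake (9.14 ± 0.69 to 10.20 ± 0.31, SD, n = 5 each; 1.06 ± 0.36), Foxo1, the transcription factor that insulin keeps out of the nucleus (0.73 ± 0.28; 0.47 without the 3 high-ratio arrays), Sos1, an exchange factor that activates Ras (0.59 ± 0.24), and the IGF-binding protein Igfbp5 (0.94 ± 0.44). For Sos1 the untreated values ran from 11.56 to 11.90 and the treated ones from 12.06 to 12.36, with no overlap. The lower one was Pdpk1, the kinase that activates Akt (8.90 ± 0.90 to 7.41 ± 0.75; -1.49 ± 0.57, limma adjusted p = 0.517). All 5 treated values were below the 40th percentile of their array.

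Targets of vanadium at the protein level were measured here only as RNA. Of 36 protein tyrosine phosphatases and related dual-specificity phosphatases, 26 had positive differences (all genes 67.4%; median 0.26, and 0.05 after quantile normalization). At an unadjusted limma p under 0.05, 4 were higher and 1 lower (all genes 6.78% and 1.9%), and after quantile normalization 3 and 2 (all genes 3.06% and 4.18%). Ptpn1 (PTP1B), which dephosphorylates the insulin receptor, had 12.28, 11.72, 12.01, 12.84 and 12.01 without and 12.82, 12.87, 12.74, 12.38 and 12.51 with treatment (M33962_g_at). The untreated replicate 4 lay within the treated range. The difference was 0.49 ± 0.25 (limma adjusted p = 0.595), and the other 4 probe sets of Ptpn1 gave 0.18 to 0.49. Dusp4, which inactivates MAP kinases, differed by 1.04 ± 0.33 from untreated values of 6.12 to 7.01 to treated values of 7.13 to 8.57; all 10 were below the 40th percentile of their array. The receptor-type phosphatase Ptprj differed by 0.98 ± 0.32, Dusp5 by 0.59 ± 0.27 and Ptprh by 0.55 ± 0.24 (0.25 after quantile normalization), and Ptprf by -0.74 ± 0.34 (-0.43 without the 3 high-ratio arrays). Ptprj and Ptprh were dim as well. Ptprj was above the 40th percentile in 0 untreated and 2 treated arrays, Ptprh in 0 and 0, and Ptprf in 4 and 2.

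Of 19 genes of P-type pumps and their accessory subunits, 13 had positive and 6 negative differences, with a median of 0.13 (-0.05 after quantile normalization). Of them 0 were higher and 0 lower at an unadjusted limma p under 0.05 (all genes 6.78% and 1.9%). After quantile normalization 0 were higher and 1 lower (all genes 3.06% and 4.18%). The calcium pumps of the sarcoplasmic reticulum, Atp2a1 of fast and Atp2a2 of slow fibres, differed by -0.60 ± 0.31 and -0.61 ± 0.40. For Atp2a1 the value after quantile normalization was -0.08, and untreated replicate 3 was highest at 18.20. The 3 other probe sets of Atp2a2 gave 0.15 to 0.51.

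Among 30 genes of antioxidant defence, 22 had positive differences (all genes 67.4%), with a median of 0.21 that was 0.13 after quantile normalization and 0.11 without treated replicate 5. At an unadjusted limma p under 0.05, 4 were higher and 0 lower (all genes 6.78% and 1.9%). These 4 were enzymes that couple glutathione to foreign compounds or reduce quinones. Gstm2, a mu-class glutathione transferase, had 11.44, 11.72, 11.40, 11.03 and 12.06 without and 11.87, 13.08, 13.37, 12.41 and 14.90 with vanadyl sulfate (J02592_s_at). Treated replicate 5 was highest and treated replicate 1 overlapped the untreated group. The difference was 1.59 ± 0.52 (limma adjusted p = 0.427) and 1.63 on the gene's other probe set.

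Gstm1, another mu-class transferase, had 11.80, 11.18, 11.69, 11.57 and 11.65 against 12.29, 12.64, 12.49, 11.72 and 13.03 (0.85 ± 0.30, limma adjusted p = 0.469), and 1.43 and 1.86 on its other probe sets. The groups overlapped only through treated replicate 4. Mu-class transferases are close in sequence, and probe sets with the suffix _s_at can bind related transcripts, so these genes may not have been measured apart. Gstt2, a theta-class transferase, differed by 1.22 ± 0.53 (1.86 without the 3 high-ratio arrays), and Nqo1, a quinone reductase, by 0.89 ± 0.40, with treated replicate 5 at 12.79 and the other 4 treated arrays between 11.33 and 11.70. Hmox1, the stress-induced haem oxygenase, differed by 0.18 ± 0.26 (0.02 after quantile normalization).

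Of 18 iron and metal genes, 12 had positive and 6 negative differences (median 0.11, and 0.00 after quantile normalization). Of them 0 were higher and 2 lower at an unadjusted limma p under 0.05 (all genes 6.78% and 1.9%). After quantile normalization the counts were again 0 and 2 (all genes 3.06% and 4.18%). The 2 lower genes with the authors' scaling both make haem. Alas1, the first enzyme of haem synthesis, had 12.65, 12.83, 12.57, 13.74 and 13.46 without and 12.59, 12.29, 11.68, 13.23 and 11.03 with treatment (J03190_at; -0.88 ± 0.42, limma adjusted p = 0.567), and -0.35 on its other probe set. The groups overlapped. Alad, the second enzyme, had 11.21, 11.20, 11.16, 11.67 and 11.22 against 11.01, 10.54, 10.51, 10.92 and 10.21 (-0.65 ± 0.27, limma adjusted p = 0.521; -0.84 after quantile normalization), with no overlap. Urod, a later enzyme of the path, differed by -0.26 (-0.39 after quantile normalization) and the erythroid form Alas2 by -0.57 ± 0.38.

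Positive differences were counted among growth and early-response genes as follows. Of 23 immediate early genes 20 were positive (all genes 67.4%), with a median of 0.33 (0.24 after quantile normalization). Of them 2 were higher at an unadjusted limma p under 0.05 (all genes 6.78%), and 2 after quantile normalization (all genes 3.06%). Klf4, a transcription factor of this group, had 12.38, 10.68, 9.26, 9.45 and 8.99 without and 12.30, 11.70, 11.54, 11.60 and 11.84 with treatment (L26292_g_at; 1.64 ± 0.50, limma adjusted p = 0.393). Untreated replicate 1 lay above the treated arrays and the other 4 untreated ones below them. The orphan receptor Nr4a3 differed by 1.14 ± 0.49, while its other probe sets gave -0.02 and 2.00, and Fos by 0.67 ± 0.34, with 0.01 and -0.08 on its other probe sets.

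Of 22 genes of developing or loaded muscle 16 were positive, a share near that of all genes (67.4%). The median was 0.33 (0.21 after quantile normalization). Of the 22, 3 were higher at an unadjusted limma p under 0.05 (all genes 6.78%), and 1 after quantile normalization (all genes 3.06%). Myod1, the transcription factor that commits cells to the muscle lineage, had 12.40, 11.72, 11.52, 11.79 and 11.64 without and 12.47, 12.98, 12.73, 12.46 and 13.21 with treatment (M84176_at; 0.95 ± 0.32, limma adjusted p = 0.442). All treated values lay above all untreated ones. Its inhibitor Id1 differed by 0.76 ± 0.30, and the perinatal myosin Myh8, dim in all 10 arrays, by 1.10 ± 0.51. Ankrd1, which responds to mechanical load, differed by 0.76 ± 0.53.

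The counts of several of the remaining lists turned with the scaling. Proteasome and ubiquitin genes had 29 positive and 6 negative differences, with a median of 0.25 (0.26 after quantile normalization, 0.13 without treated replicate 5). Of them 0 were higher and 0 lower at an unadjusted limma p under 0.05 (all genes 6.78% and 1.9%). After quantile normalization 2 were higher and 0 lower (all genes 3.06% and 4.18%). Psmc2, a proteasomal ATPase, gave 0.52 ± 0.26 and the lysosomal protease Ctsl 0.86 ± 0.44. Ribosomal proteins were at 21 positive and 20 negative (median 0.09), and at 34 and 7 after quantile normalization (median 0.25; 0.33 without the 3 high-ratio arrays). Lipid and cholesterol synthesis had 13 and 9 (median 0.07), and 8 and 14 after quantile normalization (median -0.11). After that normalization 1 was higher and 3 were lower at an unadjusted limma p under 0.05 (all genes 3.06% and 4.18%). With the authors' scaling its 4 higher genes at an unadjusted limma p under 0.05 were the desaturase Scd2 (1.26 ± 0.48), the sterol enzymes Dhcr7 (1.26 ± 0.54; 0.65 without the 3 high-ratio arrays) and Idi1 (0.86 ± 0.39), and Insig1 (1.04 ± 0.48), which retains the sterol sensor in the endoplasmic reticulum. The 1 lower gene was the mevalonate kinase Mvk (-0.80 ± 0.32, and -0.05 on its other probe set). With the same scaling 6.78% of all genes were higher and 1.9% lower at that threshold. Scd, another desaturase, ran from 6.31 to 12.55 within the treated group and differed by -0.46 ± 1.00, and by 0.17 on its other probe set.

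Extracellular matrix genes had 16 positive and 22 negative differences (median -0.03), and 13 and 25 after quantile normalization (median -0.19; 0.05 without the 3 high-ratio arrays). At an unadjusted limma p under 0.05, 3 were higher and 0 lower (all genes 6.78% and 1.9%). After quantile normalization these counts were 2 and 1 (all genes 3.06% and 4.18%). The 3 higher genes were the proteoglycan Spock2 (1.28 ± 0.45), the collagen cross-linker Lox (0.66 ± 0.28) and the membrane protease Mmp14 (0.69 ± 0.32), while the fibrillar collagen Col3a1 gave -0.99 ± 0.60. Spp1, osteopontin, differed by 0.64 ± 0.51 (0.38 without the 3 high-ratio arrays). Heat shock genes had 14 positive and 13 negative differences. Hspa4 (-0.85 ± 0.31) and the small heat shock protein Hspb6 (-0.90 ± 0.38, and -0.15 on its other probe set) were lower at an unadjusted limma p under 0.05. Hsph1 (0.62 ± 0.25) was higher at that threshold. The shares of all genes at that threshold were 1.9% lower and 6.78% higher. After quantile normalization 2 heat shock genes were lower and 1 higher (all genes 4.18% and 3.06%). MHC class I and interferon genes had 12 and 6 (median 0.08), and 6 and 12 after quantile normalization (median -0.08).

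The treatment difference was then set against that in diabetic muscle (treated minus untreated, 5 arrays each), which shares no array with it. Of 8740 probe sets, 1 (0.0114%) passed the limma test of the difference between the 2 treatment differences. This probe set, M33648_at, is unnamed here. Its log2 signal was 5.75, 5.63, 6.33, 6.80 and 6.77 in untreated and 6.03, 6.82, 7.47, 6.43 and 6.31 in treated normal muscle, each below the 40th percentile of its array. In diabetic muscle it was 10.65, 9.05, 10.23, 9.77 and 11.74 without and 6.73, 6.0, 6.33, 6.11 and 6.73 with treatment. The difference was 0.35 in normal and -3.91 in diabetic muscle, and the gap between them -4.26 (limma adjusted p = 0.00296). The call was lost without the 3 arrays whose Gapdh ratio was high (-4.20, limma adjusted p = 0.0613). Treated diabetic values lay within the range of the 2 normal groups.

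Of the genes already named, 4 with small adjusted p-values in this test are given here. Each had opposite signs in the 2 conditions. A choice by this test favours opposite signs, so the signs support nothing. Alox5ap and Ckmt2 had also been picked by their difference in normal muscle. The same pattern was seen for rc_AA859832_at (1.31 and -0.66, limma adjusted p = 0.0555) and Lgals3 (0.69 and -1.02, limma adjusted p = 0.0922). Alox5ap differed by 1.49 in normal and -1.49 in diabetic muscle (gap -2.98 ± 0.56, limma adjusted p = 0.0555), with untreated diabetic values of 9.93 to 10.53 and treated ones of 8.07 to 9.83. Fcgr2b had a gap of -2.16 ± 0.40 (limma adjusted p = 0.0555) and Ankrd1 of -3.80 ± 0.75 (limma adjusted p = 0.0694). For Ckmt2 the difference was -1.01 in normal and 1.40 in diabetic muscle (gap 2.42 ± 0.50, limma adjusted p = 0.0798). Treated diabetic arrays had 15.80 to 16.81, where untreated normal arrays had 16.11 to 16.79. None of these gaps passed. Of the 15 higher genes 6 had the same sign in diabetic muscle, and of the 15 lower genes 7. Actc1 and Tnni1 were among these 7. Their differences in diabetic muscle were -2.62 ± 0.76 and -1.73 ± 0.57 (limma adjusted p = 0.173 and 0.217), beside -2.62 and -1.60 in normal muscle. Untreated diabetic replicate 5 had 10.89 for Actc1, within the treated diabetic range of 10.53 to 12.64. Across all 8740 probe sets the 2 treatment differences had a correlation of -0.02, given as a description, since probe sets are not independent.

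**Figure D5:**
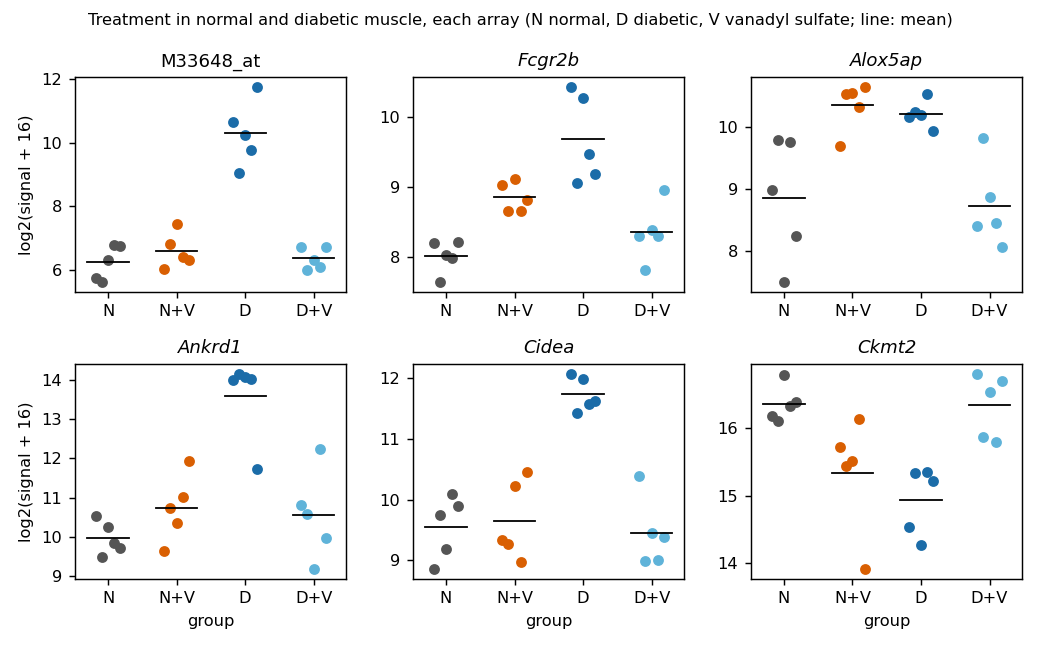
log2(signal + 16) in each array of normal (N), treated normal (N+V), diabetic (D) and treated diabetic (D+V) muscle, 5 arrays each, for the probe set that passed the test of the gap between the treatment differences (M33648_at; not past it without the 3 arrays whose Gapdh ratio was high) and 5 genes that did not; lines are group means. In M33648_at the untreated diabetic arrays sit between 9.05 and 11.74, above the other 15 arrays.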

How the data were processed

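Per the labels' protocols, poly(A) RNA of rear-leg muscle was labelled with biotin and hybridised to 1 array per sample, in 4 groups of 5. The authors deposited signal intensities on a linear scale, 1 for each probe set on each array. They came from MAS5 (version not given in the sources used here), per the submitters' processing notes. Means trimmed by 2% at both ends were 2503 to 2506 in the 10 arrays compared, so the authors' scaling was kept. The number of arrays limits the precision.

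Of 8799 probe sets, 59 controls were left out, and log2(signal + 16) of 8740 was modelled as 4 group means over 20 arrays (R 4.3.3, limma 3.58.1, functions lmFit and eBayes). All tests were two-sided, with Benjamini-Hochberg adjustment and a threshold of 0.05, and the code was checked on simulated data. The platform annotation gave 1 symbol for 7018 probe sets and several for 308, and did not list 1473; looked up by gene identifier in the RefSeq gene table (GRCr8), 6994 were found and 0 changed. Named genes were the 15 higher and 15 lower with the smallest p among probe sets with 1 symbol and a mean signal above the 40th percentile (1 probe set per gene, the one with the smallest p), the 2 to 4 list members with the smallest p, any probe set that passed, and a fixed set of insulin, fuel, iron and stress genes, where they had a probe set with 1 symbol. Not every gene of that set is reported here. Other names, and the 5 genes beside M33648_at in the plot of both conditions, were chosen after their values were seen. In lists, a gene was read from its brightest probe set. Values of a gene's other probe sets are given for some genes only. Members and lists were chosen with earlier results of these data known. Alternatives were other pseudocounts, a filter on dim probe sets, quantile and cyclic loess normalization, other fits, RNA quality as covariate, and leaving out arrays.

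Same-numbered arrays of the 2 groups did not deviate together in every pair, so the numbers were not taken as pairs. No columns of other samples were used.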

Additional observations from a re-analysis of the deposited data

Results flagged for a closer look

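Within the 5 arrays of a group, 23 of 304 gene and group combinations had 1 array far from the other 4, measured as its gap to the nearest of them over the whole range. Chance gives about 1 in 20, or 15.2 here; 14 were in untreated and 9 in treated normal muscle. Values are log2(signal + 16).

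Untreated replicate 3 was the highest of its group for Ckm (19.54, others 16.77 to 17.52), Pvalb (18.56), Myh4 (18.07), Tnni2 (17.95) and Rpl3l (15.89). It was the lowest for the calcium pump Atp2b1 (7.40, others 9.22 to 9.90) and for the protease Ctsb (11.61). Its Gapdh log2 ratio was 2.91.

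Treated replicate 5 was the lowest of its group for Hbb (10.87, others 13.98 to 15.15), Mdh2 (14.83) and Pgam2 (13.53), and the highest for Ctsl (14.94), Nqo1 (12.79, others 11.33 to 11.70) and Atp2b4 (7.99). Untreated replicate 5 was the lowest for the endothelial genes Esm1 (9.26, others 10.09 to 10.32) and Kdr (8.81) and for Tap2 (8.53).

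The remaining single arrays were untreated replicate 2 for Rbm39 (8.95, the lowest), untreated replicate 4 for Alad (11.67, the highest) and Plin2 (10.22, the lowest), untreated replicate 1 for Id1 (12.03, the highest), treated replicate 2 for Padi2 (13.80) and Chrna1 (11.03), both the highest, and treated replicate 4 for Sos1 (12.06, the lowest).

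The treatment difference itself differed between diabetic and normal muscle for 1 probe set, M33648_at, by -4.26 (limma adjusted p = 0.00296).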

How the results depend on the processing

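The count of probe sets past the adjusted threshold was 0 with a pseudocount of 1, quantile or cyclic loess normalization (the latter chosen after seeing the data), only the 10 arrays compared, the replicate block, the Gapdh ratio or both ratios as covariates, and leaving out the 3 arrays with high Gapdh ratios (2 untreated normal, 1 treated diabetic). It was 2 with a pseudocount of 64, 4 of 6027 with the filter on dim probe sets (Gipc1, Fyn and 2 unnamed), 4 with the beta-actin ratio as covariate (Gipc1, Dgkz and 2 unnamed), 4 with an intensity trend and robust eBayes, and 3 with array weights. Leaving out 1 array gave 0 to 3, with 3 without untreated replicate 4 and 3 without treated normal replicate 4. Gipc1 passed in 7 of 23 alternatives and rc_AA944177_at in 6; the cause was not tested. The count at an unadjusted p under 0.05 ran from 548 to 1044.

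The test of the gap between diabetic and normal muscle gave 1 call, but 8 with a pseudocount of 64, 10 with the filter, 6 with the replicate block, 2 with the beta-actin ratio, 12 with the trend, 16 with array weights, and 0 without the 3 arrays (M33648_at: -4.20, adjusted p = 0.0613). Leaving out 1 array gave 1 to 23, with 23 without untreated diabetic replicate 5; the cause was not tested. It has no separate value on only the arrays compared.

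Signs changed for genes near 0. Slc2a4 was -0.047 with the Gapdh ratio and -0.059 with both ratios as covariates. Cpt1b was -0.23, -0.050 and -0.23 with the Gapdh, beta-actin and both ratios, -0.40 without the 3 arrays and -0.20 with array weights. Lpl was 0.24, 0.091 and 0.057 with those ratios and 0.36 without the 3 arrays. Cd36 was -0.43 without them. Tfrc was -0.12 with loess, -0.68, -0.056 and -0.68 with the ratios, -0.82 without the 3 arrays and -0.15 with weights, and Hmox1 -0.034 with loess. Leaving out 1 array gave -0.031 to 0.14 for Slc2a4, -1.33 to 0.61 for Pdk4, -0.21 to 0.16 for Cpt1b, -0.26 to 0.17 for Lpl, -1.10 to 0.46 for Scd and -0.40 to 0.71 for Tfrc.

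Of 28 list medians, 18 kept their sign in every alternative run and 10 did not, 6 of these after quantile normalization. The same-numbered arrays had correlations of -0.23 to 0.48 in their deviations, so the replicate block rests on numbers only; it changed no call in the comparison of normal muscle.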
